A study of Mus musculus with 9 samples.

Results

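Lars2, Gm42418, CT010467.1 and AY036118 were chosen as a set by their counts. Rows with these gene names together took most of the counts in the RIP-seq libraries of mouse Neuro-2a (N2A) neuroblastoma cells. AY036118 is part of the set but had 0 counts in each library. The 4 features were found by name in the deposited table. They held 13 of its 140658 transcripts and 4 of its 54325 gene symbols. Because the values of these same libraries chose the features, their shares and fold changes are given as a description, without a test.

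The cells of all 9 libraries were treated with 200 nM okadaic acid, a phosphatase inhibitor, for 2 h. The 3 groups of 3 libraries were input RNA without immunoprecipitation, RNA recovered with rabbit IgG (rIgG IP, the background) and RNA recovered with antibody to phosphorylated UPF1 (p-UPF1 IP). RNase I cut the RNA, and fragments short enough to be footprints of bound protein were sequenced. No untreated cells were sequenced in this series, and all libraries came from 1 cell line. The labels do not say whether libraries of a group came from separate cultures, so the spread between them may be technical.

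Ribosomal RNA (rRNA) makes up most of the RNA of a cell. One long precursor is transcribed in the nucleolus from many repeated gene copies and is cut into the 18S rRNA of the small ribosomal subunit and the 5.8S and 28S rRNAs of the large subunit. Copies of pieces of these genes lie elsewhere in the genome, and annotated transcripts there can take reads that came from rRNA. UPF1 is the helicase of nonsense-mediated mRNA decay (NMD). Its phosphorylated form accumulates on RNAs that are being targeted, and RIP-seq with an antibody to it measures RNA bound to that form.

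Gm42418, CT010467.1 and AY036118 share 1 locus on chromosome 17 of GRCm38 (positions of GENCODE M21). Gm42418 is annotated as a lincRNA of 1831 nt, in 1 exon at chr17:39846958-39848788 on the plus strand. CT010467.1 is annotated as an rRNA gene on the minus strand. Its transcript CT010467.1-201 has 1849 nt (chr17:39846353-39848201), and CT010467.1-202, called a pseudogene transcript, has 714 nt (chr17:39848103-39848827). AY036118 is a lincRNA of 923 nt at chr17:39847113-39848035 on the minus strand. RefSeq, on the same build, lists an 18S rRNA pseudogene of 1849 bp there, Rn18s-rs5, with Gm42418 among its synonyms (chr17:39846354-39848202). It places its own AY036118 elsewhere, at chr17:39848112-39898385, so that name does not stand for the same stretch in both annotations.

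The features overlap base for base, as the map of the locus shows. Of Gm42418, 1244 bp lay under CT010467.1-201 on the opposite strand. AY036118 lay wholly inside CT010467.1-201 on the same strand and wholly inside Gm42418 on the opposite strand. The following stretch of 30 nt is shown because all 3 features hold it, CT010467.1 and AY036118 in the same letters and Gm42418 as the reverse complement (chr17:39847560-39847589, 5′ to 3′ on each transcript's strand, from GENCODE M21 transcripts).

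CT010467.1-201, bases 613 to 642, minus strand: gctccactcctggtggtgcccttccgtcaa

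AY036118-201, bases 447 to 476, minus strand: gctccactcctggtggtgcccttccgtcaa

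Gm42418-201, bases 603 to 632, plus strand: ttgacggaagggcaccaccaggagtggagc

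The letters of Gm42418 are in the direction of the mature 18S rRNA, as is known of this conserved stretch, and those of the other pair are its complement. Where the overlap ends, only CT010467.1 is left. The border is shown next, with capitals for the bases that Gm42418 also covers on the other strand (chr17:39846943-39846972).

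CT010467.1-201, bases 1230 to 1259, minus strand: CACCAGACTTGCCCTccaatggatcctcgt

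**Figure D1:**
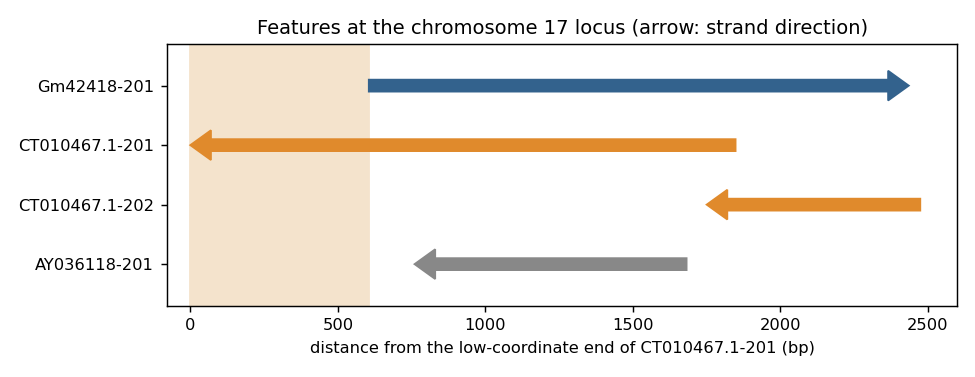
Map of the annotated transcripts at the chromosome 17 locus, on an axis of bp from the low-coordinate end of CT010467.1-201, with arrows in the direction of each strand. The shaded 605 bp belong to CT010467.1-201 and not to Gm42418, and AY036118 has no stretch of its own.

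The room that the sequences leave for telling the features apart was counted in windows of 35 nt, the shortest read that the authors kept. AY036118 had 0 windows of its own out of 889, as every one occurred in both other features. Gm42418 had 74 of its own out of 1797 (4.12%), and 1723 (95.9%) occurred on the opposite strand of another symbol. CT010467.1-201 had 605 of its own out of 1815 (33.3%), from the stretch chr17:39846353-39846957 outside Gm42418. A read from the overlap can therefore be given to Gm42418 or to CT010467.1 by its strand alone, and the methods of the study give default parameters for the quantification without naming a strand setting.

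Lars2 encodes the mitochondrial leucyl-tRNA synthetase, which charges the mitochondrial leucine tRNA. The gene lies at chr9:123366927-123462666 on the plus strand and has 9 annotated transcripts. The full coding transcript, Lars2-201, has 3894 nt, of which 2706 are coding and 989 follow the coding sequence (CDS). Lars2-209, of the annotated class of NMD targets, has 3756 nt, a CDS of 1485 nt and 2099 bases after it. Lars2-205 is a retained-intron transcript of 889 nt at chr9:123454790-123461899.

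Of the 3722 windows of Lars2-209, 3683 also occurred in Lars2-201, which left 39 (1.05%) of its own. Lars2-205 shared 746 of its 855 windows with Lars2-209. Bases 3023 to 3209 of Lars2-209, after the CDS, aligned with AA474408, a transcript of unclear status on chromosome 7, at 80.1% identity over 196 columns, with 5 mismatches and 34 gap columns. Bases 3138 to 3209 aligned with Gm15564-202 over 72 columns with 1 mismatch. The span shared with Lars2-205 ended at base 2989, before this segment. The first 30 of 41 identical bases are shown because they tie Lars2-209 (bases 3032 to 3072) to AA474408, the most-counted feature outside the 4 in the p-UPF1 IP, though not in the input or the rIgG IP.

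AA474408-201, bases 1507 to 1536: tgtcagaaaagttaccacagggataactgg

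These letters belong to a conserved stretch of 28S rRNA, as background knowledge. No 28S sequence was in the reference used here, so its match to Lars2 was not measured. The counts are per transcript and do not tell which bases of Lars2 the reads covered.

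The 4 features together took 72.4% ± 0.923 (SD, n = 3) of the input counts, 67.9% ± 1.19 of the rIgG IP counts and 53.7% ± 1.55 of the p-UPF1 IP counts. By library, they took 72.4%, 71.4% and 73.2% of the input, 68.8%, 68.4% and 66.6% of the rIgG IP and 52.6%, 53.0% and 55.5% of the p-UPF1 IP. The 3 groups did not overlap, and the p-UPF1 IP had the smallest share. How often the groups of other genes also did not overlap was not counted, so such separation is described here and below without a background. As these are shares of bulk libraries, less of these RNAs, more of the others and a different number of cells behind a library cannot be told apart. The difference was not uniform: Lars2 had its largest share in the p-UPF1 IP, Gm42418 its smallest, and CT010467.1 was close to absent from it.

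**Figure D2:**
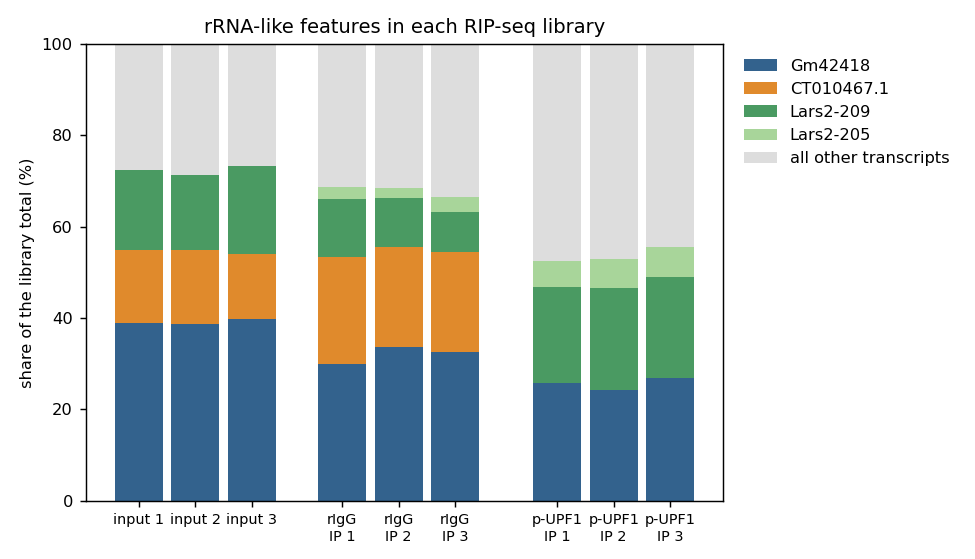
Share of the library total (%) taken by Gm42418, CT010467.1, Lars2-209, Lars2-205 and all other transcripts, stacked for each of the 9 libraries. CT010467.1 takes 14.2% to 23.4% of the input and rIgG IP libraries and at most 0.0307% of the p-UPF1 IP libraries, where it cannot be seen at this scale; Lars2-205 has 0 counts in the input.

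Gm42418 took 38.9%, 38.8% and 39.9% of the input libraries, 29.9%, 33.6% and 32.5% of the rIgG IP libraries and 25.8%, 24.2% and 26.9% of the p-UPF1 IP libraries. The 3 groups did not overlap. Its mean share was 39.2% ± 0.599 in the input and 25.6% ± 1.38 in the p-UPF1 IP (SD, n = 3 each), 1.53-fold lower. It was the most-counted gene of every input and rIgG IP library and ranked behind Lars2 in the p-UPF1 IP.

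CT010467.1 showed the widest difference. It took 16.0%, 16.1% and 14.2% of the input libraries and 23.4%, 21.9% and 21.9% of the rIgG IP libraries. In the p-UPF1 IP libraries it had 1631, 1633 and 1877 counts, or 0.0307%, 0.0271% and 0.0301%. The mean share was 528-fold higher in the input and 766-fold higher in the rIgG IP than in the p-UPF1 IP. Its rank among all genes went from 2 or 3 in the input and rIgG IP to 63, 79 and 65 in the p-UPF1 IP. CT010467.1-201 held nearly all of this. CT010467.1-202 had 174, 198 and 192 counts in the input, 20, 24 and 11 in the rIgG IP, and 0, 1 and 0 in the p-UPF1 IP.

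AY036118 had 0 counts in each of the 9 libraries. The depth allows a share of up to 0.119 CPM (counts per 1e6 counts of a library) for the input, 38.0 CPM in the rIgG IP and 0.565 CPM in the p-UPF1 IP, by a floor of 3 counts in the shallowest library of each group. A 0 is here an estimate of the quantification for a feature that has no sequence of its own, not a statement that no read matched it.

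Because reads of the overlap could go to either strand's feature, the locus was also summed. The sum can still depend on the strand setting, as the 605 bp outside Gm42418 hold a member on the minus strand only. That dependence was not tested. Its 3 features took 54.9%, 54.9% and 54.1% of the input, 53.4%, 55.5% and 54.5% of the rIgG IP and 25.8%, 24.2% and 27.0% of the p-UPF1 IP. The input and the rIgG IP overlapped, with means in a ratio of 0.997. The mean of the p-UPF1 IP was 2.13-fold below that of the input and 2.12-fold below that of the rIgG IP, and its libraries did not overlap either group. The balance within the locus differed far more than its sum. The ratio of Gm42418 to CT010467.1 counts was 2.41 to 2.81 in the input, 1.28 to 1.54 in the rIgG IP and 840 to 896 in the p-UPF1 IP.

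The share of antisense features was looked at outside the locus, since CT010467.1 and Gm42418 lie on opposite strands. The 4143 transcripts annotated as antisense, none a member, held 0.322% to 0.404% of the counts left without the 4 features in the input, 0.369% to 0.723% in the rIgG IP and 0.209% to 0.273% in the p-UPF1 IP. The p-UPF1 IP libraries were the lowest and overlapped no other group, by a much smaller margin than CT010467.1. These antisense transcripts include those of Gm15564, an rRNA-like feature that was itself lower in the p-UPF1 IP by the fits given below. The counts left also hold AA474408, not of the antisense class. It took 12.1% to 13.6% of the p-UPF1 IP libraries and 0.329% to 0.793% of the others. It thus fills more of the denominator in the p-UPF1 IP. The share without Gm15564, or with AA474408 left out of the denominator, was not computed. The difference therefore cannot be read as one of antisense features in general. The part of strand assignment in the difference at the locus was not tested.

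Lars2 differed in the other direction from the locus. It took 17.5%, 16.5% and 19.2% of the input libraries, 15.4%, 12.9% and 12.1% of the rIgG IP libraries and 26.8%, 28.8% and 28.5% of the p-UPF1 IP libraries. All 3 groups were apart, with the p-UPF1 IP highest. The mean share of 28.0% ± 1.10 in the p-UPF1 IP was 1.58-fold that of the input (17.7% ± 1.35) and 2.08-fold that of the rIgG IP (13.5% ± 1.75; SD, n = 3 each). Within the 4 features Lars2 made up 24.5% of the counts in the input, 19.8% in the rIgG IP and 52.2% in the p-UPF1 IP.

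Nearly all Lars2 counts were given to 2 of its transcripts. Lars2-209 had 4555943, 4154392 and 5722301 counts in the input, 60004, 22043 and 6988 in the rIgG IP, and 1118315, 1346650 and 1370691 in the p-UPF1 IP. Lars2-205 had 0, 0 and 0 counts in the input, 13247, 4340 and 2560 in the rIgG IP, and 304498, 392047 and 410501 in the p-UPF1 IP. Lars2-205 was thus given counts in both immunoprecipitations and none in the input, which was sequenced deepest. As 746 of its 855 windows also occur in Lars2-209, this 0 is an estimate of the quantification. It does not state that no input read matched Lars2-205. It made up 20.4% ± 5.57 of the Lars2 counts in the rIgG IP and 22.3% ± 0.844 in the p-UPF1 IP, and these ranges overlapped. As a share of the library it was 2.72% in the rIgG IP and 6.27% in the p-UPF1 IP, without overlap.

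**Figure D3:**
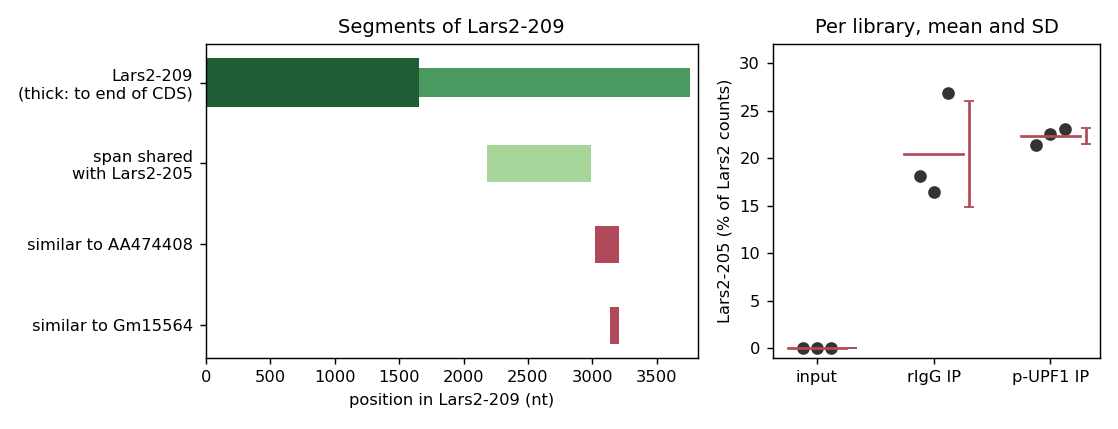
Left, positions along Lars2-209 in nt of the end of its CDS, of the span it shares with Lars2-205 and of the segments similar to AA474408 and Gm15564. Right, Lars2-205 as a percentage of the Lars2 counts of each library (points), with the mean (line) and SD (bar); the input stands at 0 and the IP groups between 16.4% and 26.8%.

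The coding transcript Lars2-201 had 174, 215 and 241 counts in the input, 0, 17 and 0 in the rIgG IP, and 3, 22 and 26 in the p-UPF1 IP. It was thus 0.00440% of the Lars2 counts in the input, although it holds 3683 of the 3722 windows of Lars2-209. The other 6 Lars2 transcripts had at most 3 counts in any library. How the quantification divided fragments between transcripts that share nearly all their windows was not tested.

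Lars2 was also set beside 19 other aminoacyl-tRNA synthetase genes, 16 mitochondrial ones and Gars, Kars and Lars. On a scale of CPM per kb of the longest transcript, Lars2 had a mean level of 45514 in the input, 34574 in the rIgG IP and 72011 in the p-UPF1 IP. The highest of the 19 was Gars, the glycyl-tRNA synthetase of cytosol and mitochondria, at a level of 51.8, 40.6 and 19.4. Lars2 was 878-fold, 851-fold and 3713-fold above it. Lars2-201 alone had a level of 1.99 CPM per kb in the input, above 16 of the 19 genes, whose median level was 0.791. In the p-UPF1 IP its level was 0.717, above 5 of the 19. In the rIgG IP it was 7.09, above 17 of the 19, but this came from 17 counts in rIgG IP replicate 2 alone. The level of Lars2-201 therefore fell within the range of the family, and that of the summed gene did not. The 19 genes were each summed over their transcripts, so Lars2-201 alone is a part set beside wholes.

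**Figure D4:**
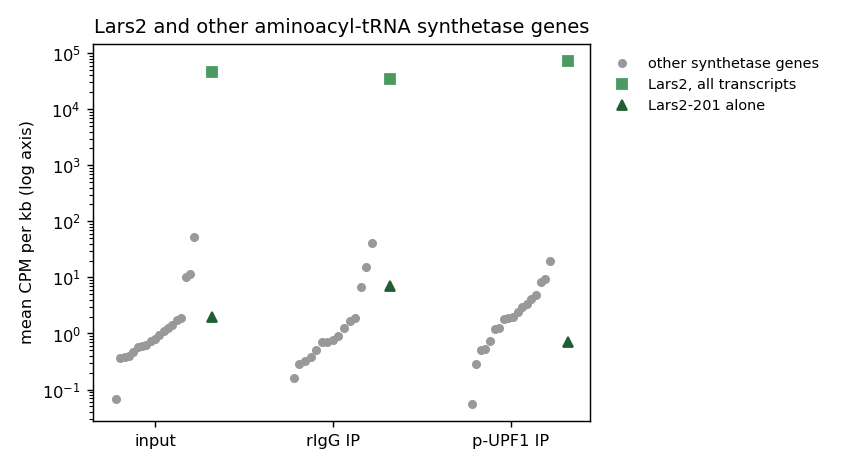
Mean CPM per kb of the longest transcript, on a log axis, for 19 other aminoacyl-tRNA synthetase genes (grey, without those at 0), Lars2 summed over its transcripts (square) and Lars2-201 alone (triangle) in the 3 groups. The square stands 851-fold or more above the highest grey point in each group, and the triangle stands among the grey points.

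The family gave no common direction. Genes were called where the log2 fold change was above 1 or below -1 with an adjusted p under 0.05, by edgeR's quasi-likelihood test with TMM scaling over all genes. Of the 19, 7 were higher in the p-UPF1 IP than in the input, 6 were lower and 6 were not called. With library totals alone or DESeq2, 7 were higher and 4 lower. Scaled by the totals of all genes but the 4 features, 4 were higher and 8 lower. Among all 16919 genes tested, 17.3% were called higher and 26.5% lower. Ears2, the mitochondrial glutamyl-tRNA synthetase, was higher with a log2 fold change of 2.66 (adjusted p = 1.94e-08), as was Aars2 for alanine at 1.75 (adjusted p = 1.11e-06). Mars2 for methionine was lower at -3.14 (adjusted p = 1.39e-06), and Gars at -1.82 (adjusted p = 1.52e-08). Over the rIgG IP, 2 of 18 tested were higher and 0 lower, beside 17.5% and 5.34% of all genes, and with RLE factors or DESeq2 1 was higher and 1 lower. In the rIgG IP over input 0 of 19 were called, with 2 at an unadjusted p under 0.05, and 0 by DESeq2.

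The 4 features were then read in the same fits across all genes. AY036118, without counts, was not in them. In the p-UPF1 IP over input, CT010467.1 had a log2 fold change of -9.44 (SE 0.16), among the lowest 0.325% of genes. Gm42418 had -1.02 (SE 0.13) and Lars2 0.25 (SE 0.12). The median of all other genes was -0.42. With library totals alone as the scale that median was -0.01, and Gm42418 had -0.61 and Lars2 0.66.

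Against the rIgG IP, CT010467.1 in the p-UPF1 IP had a log2 fold change of -9.37 (SE 0.46). Lars2 had 1.24 (SE 0.35), and 0.95 with RLE factors. Gm42418 had -0.09 (SE 0.34), with a median of all other genes of 0.89. In the rIgG IP over input, the log2 fold changes were 0.19 for CT010467.1, -0.66 for Gm42418 and -0.73 for Lars2, beside a median of all other genes of -0.84. The comparisons share their libraries and are not independent.

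**Figure D5:**
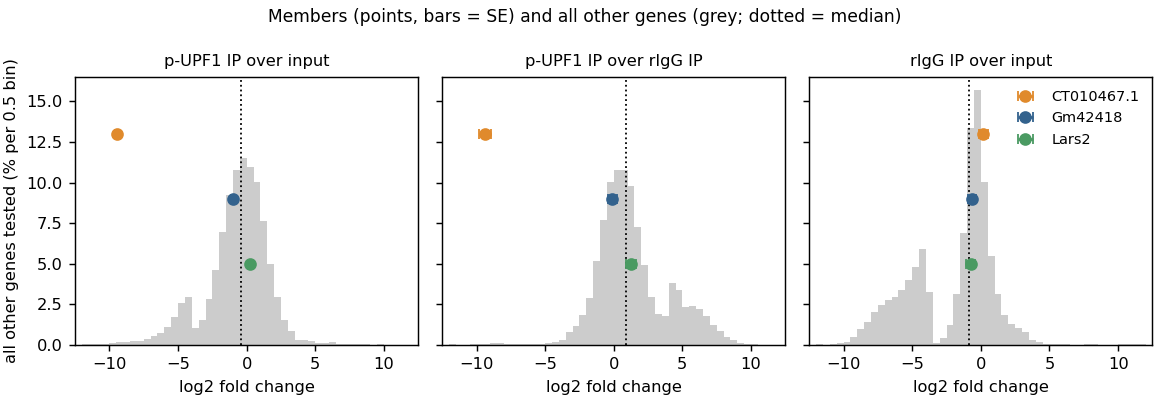
Histograms of the log2 fold change of all other genes tested (% of genes per bin of 0.5) in the 3 comparisons, with the median dotted, and CT010467.1, Gm42418 and Lars2 as points with SE bars; the height of the points has no meaning. CT010467.1 lies at -9.44 and -9.37 in the p-UPF1 IP comparisons and at 0.19 in the rIgG IP over input, while Gm42418 and Lars2 lie within the body of the distribution.

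By transcript, 6 of the 13 entered the fit of the p-UPF1 IP over input. CT010467.1-201 had a log2 fold change of -9.75 (SE 0.12). Gm42418-201 had -1.32 (SE 0.08), and -0.61 with library totals alone. Lars2-209 had -0.41 (SE 0.08), which turned to 0.30 with library totals alone, and Lars2-201 had -2.19 (SE 0.66). Lars2-205 had no counts in the input and CT010467.1-202 had 1 count in the p-UPF1 IP, so no fold is given for them. Among all transcripts tested, 8.55% were called higher and 16.2% lower there. The median log2 fold change of all other transcripts there was -0.95. Over the rIgG IP, both Lars2 transcripts with most of the counts had positive log2 fold changes. Lars2-209 had 1.63 (SE 0.37), and 1.19 with RLE factors, 0.99 with library totals alone and 0.96 with all 9 libraries in one fit. Lars2-205 had 1.90 (SE 0.26). The median of all other transcripts in that fit was 4.12, above both, so the positive values do not set them apart. With DESeq2 the median was 0.63, below Lars2-209 at 1.19 and Lars2-205 at 1.44. CT010467.1-201 had -8.92 (SE 0.40). All-transcript calls were 12.7% higher and 1.34% lower. With 1 p-UPF1 IP library omitted, CT010467.1-201 lay between -8.94 and -8.84 and Lars2-205 between 1.86 and 1.98.

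The 4 features set how much of each library was left for all other genes. Without them, 7171581 to 7990347 counts remained in the input libraries, 2518455 to 2833758 in the p-UPF1 IP and 26420 to 148088 in the rIgG IP. The median input library was 4.31-fold deeper than the median p-UPF1 IP library by its total and 2.59-fold deeper by what remained. In the shallowest rIgG IP library, 3 counts were 114 CPM of the remainder. Leaving the 4 features out of the fit changed little with TMM scaling, which refits its factors. Relative to the input, 2919 other genes were higher and 4478 lower with them, and 2984 and 4371 without. Scaled by the totals of the remaining genes, however, 2094 were higher and 5838 lower, with a median log2 fold change of -0.75. With library totals that hold the features, 4108 were higher and 3159 lower. Over the rIgG IP the counts were 2101 and 642 with TMM scaling, and 905 and 1106 by the totals of the remaining genes.

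The other rRNA features had their largest share in the rIgG IP. Of 361 listed (annotated rRNA genes and rRNA-like symbols), 310 were in the table. They took 3.21% to 3.80% of the input, 7.74% to 8.72% of the rIgG IP and 3.48% to 4.27% of the p-UPF1 IP. Of 69 tested against the input, 4 were higher in the p-UPF1 IP and 17 lower, beside 17.3% and 26.5% of all genes, but the number lower was 5 with library totals alone and 29 by the totals of the remaining genes. In the rIgG IP over input, 11 of 69 were higher and 1 lower, beside 0.584% and 0.313% of all genes, and these counts lay between 11 and 16 higher and at 1 lower over the alternatives run. The 5.8S gene n-R5-8s1 was higher in the p-UPF1 IP, with a log2 fold change of 1.76 over the input (adjusted p = 1.41e-08) and 2.72 over the rIgG IP (adjusted p = 7.82e-08). The most-counted 5S gene, n-R5s100, had -0.86 over the input without a call and was lower over the rIgG IP at -1.25 (adjusted p = 0.00135). Many 5S copies are near-identical, so counts of one are uncertain.

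The mitochondrial rRNAs parted. mt-Rnr1, of the small mitochondrial subunit, was higher in the p-UPF1 IP over input at 1.08 (adjusted p = 3.79e-05), and mt-Rnr2, of the large one, was lower at -1.03 (adjusted p = 5.64e-05). Both lay close to the limit: mt-Rnr2 was not called with library totals alone (-0.63), nor mt-Rnr1 by the totals of the remaining genes (0.73). Gm26917, the single annotated gene within 10 kb of the chromosome 17 locus, ends before CT010467.1 begins and lies on the strand of Gm42418. It was higher over the input in the p-UPF1 IP (1.18, adjusted p = 1.67e-06) and in the rIgG IP (1.75, adjusted p = 0.00984), at levels of 204 to 232 CPM in the input, 581 to 726 in the p-UPF1 IP and 533 to 2278 in the rIgG IP.

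The pair with sequence like Lars2 parted too. AA474408 took 0.495%, 0.793% and 0.463% of the input, 0.329%, 0.335% and 0.614% of the rIgG IP and 13.6%, 12.1% and 13.0% of the p-UPF1 IP. Its log2 fold change in the p-UPF1 IP was 4.07 over the input (SE 0.21, adjusted p = 6.47e-08) and 5.24 over the rIgG IP (adjusted p = 4.06e-11). Gm15564 was lower over both, at -1.21 (adjusted p = 2.22e-05) and -1.15 (adjusted p = 0.000179). So of the 2 features with such a sequence, 1 was higher and 1 lower in the p-UPF1 IP with TMM scaling. Gm15564 lay close to the limit, and its call with library totals alone is not given here. That scaling moved the median log2 fold change of other genes over the input from -0.42 to -0.01. The Gm15564 values also sum 3 annotated transcripts, so they do not give the direction of the transcript that aligned with Lars2.

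Of other abundant noncoding RNAs, 4 of 5 listed were in the table. Rn7sk, which holds the elongation factor P-TEFb inactive, was lower in the p-UPF1 IP over input at -3.12 (adjusted p = 1.36e-09), as was Rn7s1, of the signal recognition particle, at -2.05 (adjusted p = 4.73e-05). Rmrp, the RNA of RNase MRP, which acts in rRNA processing, was higher at 2.01 (adjusted p = 6.91e-08). Rpph1, the RNA of RNase P, had -0.05 without a call. Over the rIgG IP, however, Rpph1 was lower in the p-UPF1 IP at -3.01 (adjusted p = 2.02e-12). It was higher in the rIgG IP over input at 3.22 (adjusted p = 1.62e-06). Rn7sk, Rn7s1 and Rmrp kept their directions over the rIgG IP.

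Over all 9 libraries, the genes whose share followed the 4 summed features most closely were Gm48368, Eef2, Npm1, Ddx5 and Canx. Their root mean square differences were 0.118, 0.142, 0.153, 0.158 and 0.162 on the centred log2 CPM scale, where the median of the 144 genes ranked was 0.941. Pearson's r lay between 0.73 and 0.93. This is a description of 9 libraries that share a depth pattern, as only genes with at least 10 counts in each library were ranked.

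The cell type was checked on markers. The 9 markers of sympathetic neuroblastoma reported were each detected in every input library. They summed to 146 to 164 CPM in the input, 143 to 171 in the rIgG IP and 191 to 214 in the p-UPF1 IP. The 6 markers of other cells summed to 0.938 to 1.5 CPM in the input, 0 to 12.7 in the rIgG IP and 7.2 to 11.7 in the p-UPF1 IP, with Aqp4 at 0 throughout. Of these 6, 3 to 4 were detected in an input library and 1 to 2 in a p-UPF1 IP library. The higher sum of the p-UPF1 IP thus came from 1 to 2 genes per library. The part of the markers in the differences above was not tested.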

How the data were processed

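RIP-seq of N2A cells gave 9 libraries in 3 groups. The authors trimmed reads with fastp, mapped them with STAR 2.7.0f to GRCm38 and quantified transcripts with Salmon 0.13.1 (versions from the submitters' processing notes). The deposited counts per transcript are whole numbers, not scaled for library size. The paper gives default parameters for Salmon in RIP-seq; the rounding and the strand setting are not given in the sources used here. Replicates were not pooled, and every column was matched to a library by name.

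From these counts, shares of library totals were computed per transcript and summed per gene symbol. Confidence intervals and floors of 3 counts cover counting error only. Totals were 25184464 to 29857955 (input), 79010 to 474491 (rIgG IP) and 5312526 to 6246110 (p-UPF1 IP). Pairs of groups were tested with edgeR 4.0.16 (R 4.3.3; TMM, quasi-likelihood, its 6 libraries, summed count at least 10). A call needed a p under 0.05, adjusted by Benjamini-Hochberg over all features, and an absolute log2 fold change of more than 1. The procedure was tested on simulated data. All 13 member transcripts, and 139921 of all, were matched by identifier to GENCODE M21, an earlier release than the paper's. Shared windows were counted on both strands, and transcripts were aligned with BLAST 2.17.0.

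The members and lists were chosen with earlier results of these data known. Text names the members, the 5 genes most like them, and list features with a mean of at least 10 counts in a group; AA474408 and Gm15564 were named for their alignment. One cell type marker is not reported here. Alternatives were RLE factors, library totals, DESeq2 1.42.0, other filters, all 9 libraries, the replicate number as a block, fits without the members, other denominators and windows, and leaving out each library. Scaling by the totals of the other genes, and the lists under other scalings, were chosen after seeing the data.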

Additional observations from a re-analysis of the deposited data

How the results depend on the processing

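The share of the 4 features summed depended on the denominator. Without mitochondrially encoded genes it was 76.1% in the input and 71.0% in the rIgG IP, and without the 10 most-counted other transcripts it was 80.7%, 76.6% and 71.5% (input, rIgG IP, p-UPF1 IP). Leaving out 1 library gave 71.9% to 72.8%, 67.5% to 68.6% and 52.8% to 54.2%. The windows of all members found in another symbol were 19.5% at 35 nt, 20.5% at 25 nt and 18.9% at 50 nt.

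The members were chosen on these libraries, so how many of them passed the thresholds shows only how the fits moved and is no test of them. In the p-UPF1 IP over input, 2 member genes were called, but 1 with RLE factors, library totals alone, filterByExpr, all 9 libraries or DESeq2, and 1 to 2 with a library left out (1 without input replicate 3 or p-UPF1 IP replicate 2), as Gm42418 fell under the limit. In the p-UPF1 IP over rIgG IP, 2 became 1 with RLE factors, filterByExpr or DESeq2, and 1 to 2 with a library left out (1 without rIgG IP replicate 2 or 3), as Lars2 lost its call. Over 13 alternatives, CT010467.1 stayed between -9.52 and -9.04 over the input and between -9.72 and -9.12 over the rIgG IP. Of member transcripts, 4 to 5 were called in the p-UPF1 IP over input with a library left out. Over the rIgG IP, 4 became 3 with RLE factors, library totals alone, all 9 libraries or without rIgG IP replicate 2, as Lars2-209 lost its call, and 2 without a filter. With a library left out they were 0 to 4: each fit without p-UPF1 IP replicate 1, 2 or 3 called 0 of them and 2, 1 and 2 of all other transcripts, while CT010467.1-201 kept a log2 fold change of -8.94 to -8.84. In the rIgG IP over input edgeR called 0 of 6 members and 0 of all 36312 transcripts (4 and 7093 at an unadjusted p under 0.05). The members called were 1 with RLE factors (7 others), 4 with filterByExpr (110 others higher, 1978 lower) or all 9 libraries (115 and 1259), 2 with DESeq2 (578 and 789), 3 with the replicate block (131 and 266), and 0 to 3 with a library left out (2 without rIgG IP replicate 1, with 51 and 1188 others, and 3 without rIgG IP replicate 3, with 108 and 1472). The calls of all transcripts moved as well, but not in step with those of the members. In the p-UPF1 IP over rIgG IP, for example, the replicate block kept 4 member transcripts called. It called 816 others higher and 248 lower, where the main fit called 2914 and 307.

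Deviations of libraries with the same number were not correlated (r from -0.050 to 0.060), so the numbers were not taken as pairs; with the replicate block 2 member genes were called in the p-UPF1 IP over input. The rIgG IP libraries, with at most 474491 counts, limit every comparison with them.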
